A study of Mus musculus with 12 samples.

Results

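The growth hormone to IGF1 axis of the liver was followed through 10 genes in bulk RNA-seq libraries of 12 mouse livers. The genes were taken by symbol from a table of read counts for 24527 gene symbols, and all 10 passed the filter on low counts that left 13204 genes to be tested. They are the growth hormone receptor Ghr, its signal transducers Stat5a and Stat5b, the feedback inhibitors Socs2 and Cish, the secreted products Igf1 and Igfals, and the transcriptional regulators Bcl6, Cux2 and Trim24. The mice were offspring of CF1 females and B6SJL males, aged 39 weeks, from natural matings or from in vitro fertilization (IVF), where egg and sperm meet in a dish and embryos are transferred to a recipient. Natural females, IVF females, natural males and IVF males were each represented by n = 3 libraries of poly-A selected RNA from snap-frozen liver. The labels call the libraries of a group replicates without saying whether they came from different litters, and the titles of 1 IVF female and 1 IVF male share a number whose meaning is not given in the labels, so p-values measure the spread between these samples.

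Growth hormone from the pituitary binds GHR on hepatocytes and activates the kinase JAK2, which phosphorylates STAT5A and STAT5B. These enter the nucleus and switch on Igf1, Igfals and the inhibitors Socs2 and Cish, which in turn damp the receptor. Male mice release growth hormone in pulses with long gaps and females release it more continuously, and the liver reads the pattern as sex. BCL6, a repressor favoured in male liver, and CUX2, a regulator restricted to female liver, compete with or act beside STAT5, and TRIM24 is a transcriptional coregulator with ubiquitin ligase activity.

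The depth of a library, its total count, was 6826534 to 23430136 among the females and 14002847 to 27832271 among the males. Levels are given in CPM, counts scaled to the library's effective total (TMM). The limit that a count of 0 allows, 3 counts, stood at 0.445 CPM for the shallowest and at 0.119 CPM for the deepest library, counting error alone considered. Xist, the RNA of the inactive X chromosome, had 9122 to 24627 counts in female and 1 to 27 in male libraries, and the Y-linked Ddx3y had 0 to 1 and 1443 to 2470. The least deep libraries, with 6826534 counts for IVF female replicate 1 and 8056230 for natural female replicate 2, stood apart from the other 4 females and are called shallow here. Values without them are given beside the results they change. Summed hepatocyte markers, 7 genes in the table including albumin, lay between 70035 and 102777 CPM, whereas 8 pancreas and fat markers summed to at most 1.2 CPM, with Prss2 at 0 in all libraries. In bulk tissue, fewer cells of a type and less RNA per cell cannot be told apart.

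Motifs for STAT5 were looked for at the start sites of the 10 genes, because BCL6 and STAT5 are known to bind the same palindrome, TTCNNNGAA, where N is any base. RefSeq start-site windows (GRCm38, from 250 bases before to 50 bases after a start) matched 9 of the 10 genes in 17 windows, with none for Socs2. The palindrome, which reads alike on both strands, was found in 5 windows belonging to Cish, Bcl6 and Igfals, against 8.30% of all 32851 windows. The same arms with a gap of 4 bases, also a palindrome, were in 0 of the 17 windows, against 6.95% of all windows. Shown here are the windows of the 3 genes with the most matches or the match nearest the start, with the palindromes in capitals and the sequences read 5′ to 3′. The Cish stretch is chr9:107296409-107296678 on the plus strand and ends 20 bases past the start. The Bcl6 stretch is chr16:23981284-23981533 on the minus strand, upstream of an internal start of the gene. The Igfals stretch is chr17:24877981-24878230 on the plus strand.
Cish: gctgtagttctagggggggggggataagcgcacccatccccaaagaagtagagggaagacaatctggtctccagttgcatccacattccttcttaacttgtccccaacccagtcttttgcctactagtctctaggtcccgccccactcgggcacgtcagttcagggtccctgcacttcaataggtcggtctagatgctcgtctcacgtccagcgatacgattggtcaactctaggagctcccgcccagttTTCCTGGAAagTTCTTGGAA
Bcl6: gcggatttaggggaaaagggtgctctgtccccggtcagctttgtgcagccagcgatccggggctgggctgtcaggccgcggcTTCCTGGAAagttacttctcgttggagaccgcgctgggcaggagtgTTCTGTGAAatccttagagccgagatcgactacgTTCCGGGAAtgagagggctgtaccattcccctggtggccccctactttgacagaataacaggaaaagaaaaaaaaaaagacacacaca
Igfals: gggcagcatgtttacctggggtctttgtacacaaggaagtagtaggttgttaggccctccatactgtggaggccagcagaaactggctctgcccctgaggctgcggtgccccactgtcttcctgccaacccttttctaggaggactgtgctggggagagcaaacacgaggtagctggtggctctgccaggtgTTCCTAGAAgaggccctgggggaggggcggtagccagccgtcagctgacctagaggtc
Cish carried 2 palindromes that begin at offsets 0 and 11 from its start, 2 bases apart. The Bcl6 stretch carried 3, beginning 168, 122 and 88 bases upstream, and a further Bcl6 window held 1 at 118 bases upstream. Igfals carried 1 at 58 bases upstream in the stretch shown and 1 at 236 bases upstream of another start. Windows with 2 or more palindromes made up 0.457% of all windows. A match describes these letters only, and binding was not measured here.

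**Figure D1:**
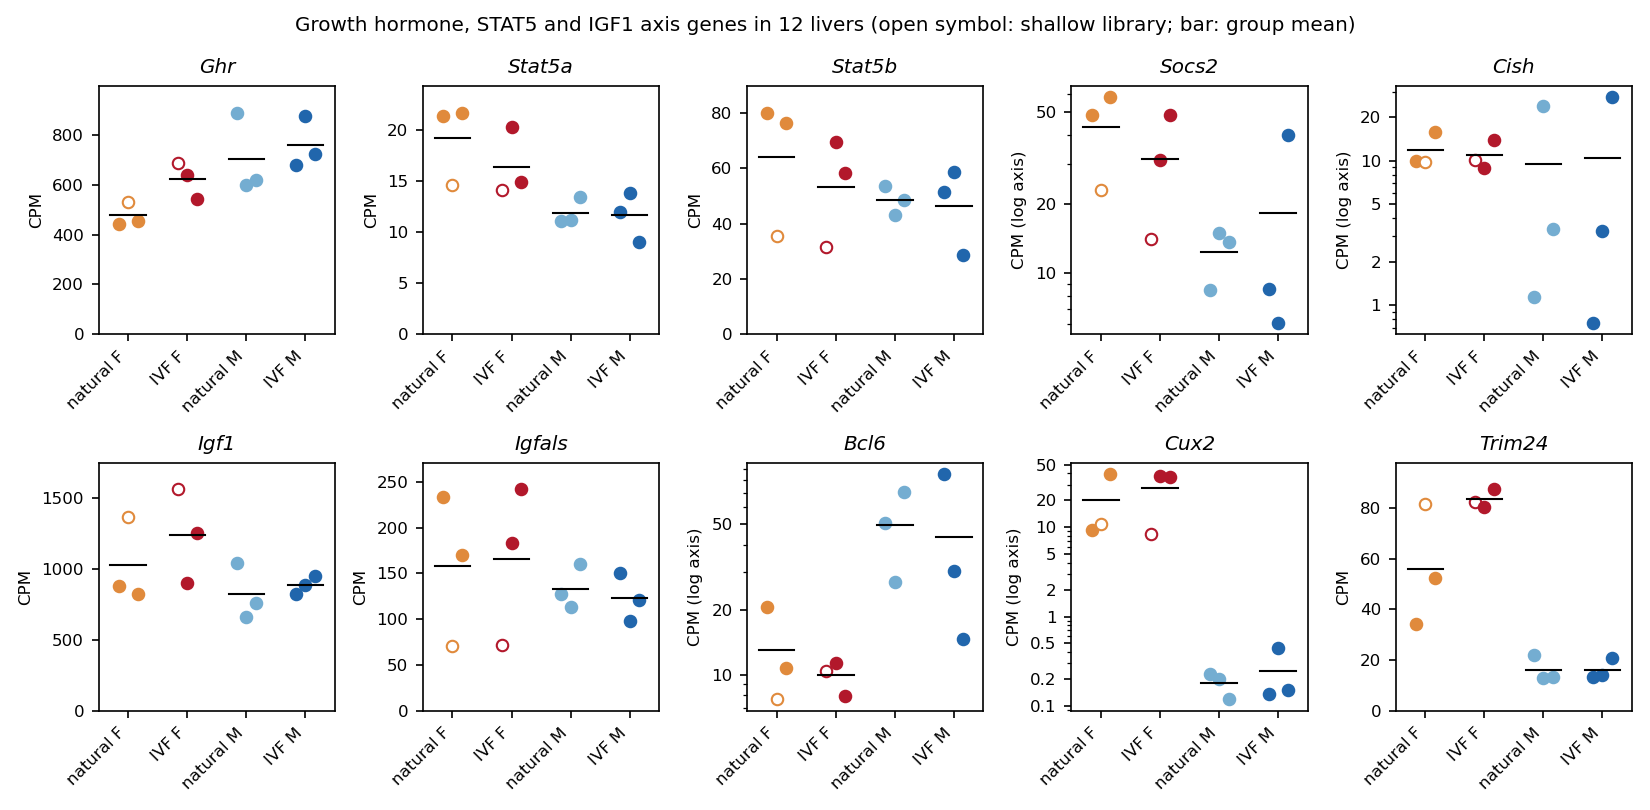
Levels of the 10 genes in every library, in CPM (log axis for Socs2, Cish, Bcl6 and Cux2), by group; each point is 1 library, bars are group means and open symbols are the 2 shallow libraries. Cux2 and Trim24 were lower in all 6 males than in any female, while Cish spanned 0.755 to 27.4 CPM among males against 8.90 to 15.8 CPM among females.

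Read per kilobase of exon so that genes can be compared, the products and the receptor were far above the inhibitors and regulators. In females Igf1 led with 114 ± 30.9 CPM per kb (SD, n = 6), followed by Ghr at 60.7 ± 10.8 and Igfals at 51.1 ± 23.8. Stat5b at 10.6 ± 3.76 and Trim24 at 8.18 ± 2.51 came next, then Socs2 at 3.92 ± 1.81, Stat5a at 2.50 ± 0.514, Cux2 at 2.35 ± 1.55, Cish at 1.77 ± 0.430 and Bcl6 at 1.71 ± 0.700 CPM per kb. Ghr and Igfals overlapped within their spread, as did Stat5b with Trim24 and the last 4 genes with each other. In males Igf1 at 86.2 ± 13.6 and Ghr at 80.9 ± 13.8 CPM per kb (SD, n = 6) were level within their spread, and Igfals had 40.5 ± 7.32. Bcl6 stood at 6.92 ± 4.11 CPM per kb in males, beside Stat5b at 8.55 ± 1.91, whereas Trim24, Stat5a, Socs2 and Cish lay between 1.55 and 1.89 and Cux2 at 0.0211 ± 0.0119.

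Sex differences were called in several of these genes. Averaged over both modes of conception, 4 of the 10 genes were called by edgeR's quasi-likelihood test (Benjamini-Hochberg adjusted p under 0.05 over all tested genes), against 7.2% of all tested genes. Bcl6 alone rose in males, against 3.57% of all tested genes, and Cux2, Trim24 and Stat5a fell, against 3.63%. That near-even split of all genes, 472 higher and 479 lower in males, depended on the scaling: with library size alone it was 252 higher and 1373 lower, while Bcl6 stayed the only member called higher. The median log2 difference, male minus female, was -0.37 over the 10 genes and -0.01 over all genes, and 8 of the 10 were negative. Without a call for either sex were Ghr, Stat5b, Socs2, Cish, Igf1 and Igfals. Within natural animals 2 of 10 passed, against 1.77% of all tested genes, and within IVF animals 2 of 10, against 2.19%; in both cases these were Cux2 and Trim24. DESeq2 called 3 in each mode, adding Bcl6 (adjusted p 0.0213 and 0.00818), and a term for the shallow libraries added Stat5a in natural animals (adjusted p 0.0438). At an unadjusted p under 0.05 the counts were 6 of 10 in natural animals and 3 of 10 in IVF animals, against 14.9% in each, and 6 of 10 on average, against 23.6%. The libraries of the 6 males and the 6 females did not overlap for 3 of the 10, Cux2, Trim24 and Stat5a, against 5.75% of all tested genes. Within natural animals the sexes did not overlap for 6 of the 10, against 20% of all tested genes, and within IVF animals for 4, against 21.8%.

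Ghr (chromosome 15, 3317760 to 3583492, minus strand, GRCm38), which encodes the receptor, was among the most evenly expressed of the 10. Natural females had 441, 533 and 456 CPM and IVF females 688, 638 and 544 CPM. Natural males had 890.3, 601 and 621 CPM and IVF males 682, 876 and 724 CPM. All natural females were below all natural males, whereas IVF females and IVF males overlapped. The male minus female log2 difference was 0.56 ± 0.21 (SE) in natural animals, with an adjusted p of 0.229, and 0.29 ± 0.21 in IVF animals, with an adjusted p of 0.584 (edgeR). On average it was 0.43 ± 0.15, with an adjusted p of 0.109.

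Stat5b and Stat5a encode the transducers, of which STAT5B is the main form in liver. The genes are neighbours on chromosome 11, Stat5b at 100780731 to 100850724 on the minus strand and Stat5a at 100859351 to 100885169 on the plus strand, 8626 bases apart. Stat5a shares 72 exon bases, 1.01% of its exon length, with Stat3 on the opposite strand, and it was not stated whether counting used strand. Stat5a was 21.4, 14.6 and 21.7 CPM in natural females, 14.1, 20.3 and 14.9 in IVF females, 11.1, 11.2 and 13.4 in natural males and 12.0, 13.9 and 9.01 in IVF males. All 6 males lay below all 6 females, by a narrow margin between 13.9 and 14.1 CPM, and this lowest female was a shallow library. The average log2 difference was -0.60 ± 0.16, 1.52-fold lower in males, with an adjusted p of 0.0474 (edgeR). Of 12 fits that each omitted a library, 10 lost that call, as did a fit without the filter on low counts (adjusted p 0.0764), with the direction kept.

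Stat5b was 80.2, 35.6 and 76.5 CPM in natural females, 31.6, 69.6 and 58.5 in IVF females, 53.6, 43.2 and 48.5 in natural males and 51.4, 58.8 and 28.5 in IVF males. The lowest female values were those of the 2 shallow libraries, and the sexes overlapped. The average log2 difference was -0.31 ± 0.26, with an adjusted p of 0.491. The share of Stat5b in the summed counts of both genes was 75.7 ± 4.48% (SD, n = 6) in females and 79.8 ± 2.40% in males, a difference of 4.09 percentage points (two-sided exact permutation test within mode of conception, p = 0.085; smallest possible 0.005). The shallow libraries had 69.2% (95% Wilson interval 63.8 to 74.1, counting error only) and 70.9% (66.4 to 75.0), the lowest shares of all 12. Without them the difference was 1.27 percentage points, with an exact p of 0.34.

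Socs2 and Cish encode SH2-domain inhibitors that growth hormone induces through STAT5. Socs2 (chromosome 10, 95385362 to 95417180, minus strand) was 48.8, 23.0 and 58.2 CPM in natural females, 31.2 and 48.9 in the deeper IVF females and 14.1 in the shallow one. Natural males had 8.50, 14.9 and 13.6 CPM, all below the natural females. IVF males had 8.51, 6.10 and 40.0 CPM, so that replicate 3 lay within the female range and the other 2 below it. The male minus female log2 difference was -1.81 ± 0.67 in natural and -0.79 ± 0.65 in IVF animals, with adjusted p of 0.224 and 0.634 (edgeR). The average of -1.30 ± 0.47 did not pass either, with an adjusted p of 0.115, but passed without IVF male replicate 3, at -1.96 with an adjusted p of 0.0123.

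Cish (chromosome 9, 107296026 to 107302784, plus strand) was even among females and scattered among males. It shares 479 exon bases (7.46% of its exon length) with Gm17041 and 261 (4.07%) with Gm17040, both on the opposite strand and neither a row of the count table, so reads from them could not be told apart without strand. Females had 9.99, 9.71 and 15.8 CPM after natural conception and 10.1, 8.90 and 13.8 CPM after IVF. Natural males had 1.14, 23.7 and 3.36 CPM and IVF males 0.755, 3.25 and 27.4 CPM. In each male group 1 library lay above every female and 2 lay below every female. The average sex difference was accordingly unresolved, -0.20 ± 0.77 on the log2 scale with an adjusted p of 0.899, and its direction changed when any of 4 libraries was omitted.

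Igf1 and Igfals encode the circulating growth factor and the acid-labile subunit that holds it in serum complexes. Igf1 (chromosome 10, 87858265 to 87937042, plus strand) was 879.8, 1369 and 824 CPM in natural females and 1563, 899.6 and 1255 CPM in IVF females. Natural males had 1039, 659.8 and 763 CPM and IVF males 824, 889 and 947 CPM. The highest values were the 2 shallow female libraries, and the sexes overlapped, with an average log2 difference of -0.40 ± 0.19 and an adjusted p of 0.235 (edgeR). Igfals (chromosome 17, 24865997 to 24882010, plus strand) showed the opposite pattern among females: 233, 70.8 and 170.0 CPM after natural conception and 72.0, 183 and 242 CPM after IVF, with the shallow libraries lowest. Natural males had 127, 113 and 159.9 CPM and IVF males 150.5, 97.9 and 121 CPM, between the shallow and the other females. The average log2 difference of Igfals was -0.34 ± 0.32 with an adjusted p of 0.540. Without both shallow libraries it was -0.71 with an adjusted p of 0.0295, and Igfals then passed as lower in males.

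**Figure D2:**
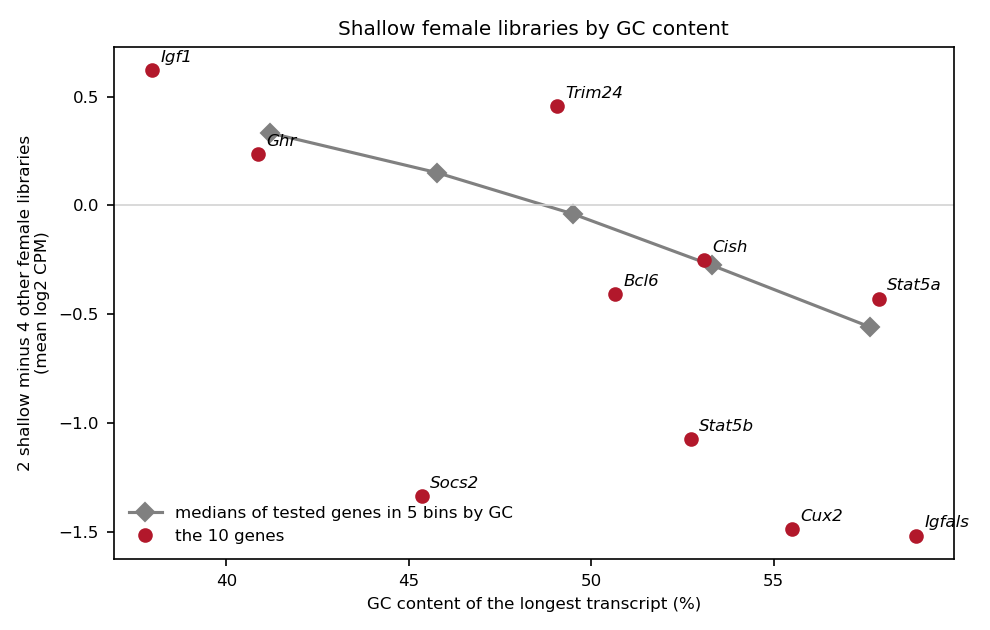
Mean log2 CPM of the 2 shallow libraries minus that of the other 4 female libraries for each of the 10 genes (circles), against the GC content of the longest transcript; diamonds are the medians of all tested genes in 5 bins by GC content. The medians fall from 0.33 to -0.56, and Igf1 (0.62) and Igfals (-1.52) sit at opposite ends. Igfals, Cux2 and Stat5b lie below the line, while Socs2 and Trim24 lie off it in opposite directions.

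The 2 shallow libraries differed from the other females in a way that followed base composition. The median log2 difference over tested genes fell from 0.33 in the bin with the lowest GC content to -0.56 in the bin with the highest. Igf1 is more AT-rich than nearly all tested genes (GC percentile 2.1) and was 0.62 higher in the shallow libraries on the log2 scale, and Igfals is at percentile 93.9 and was 1.52 lower (log2 difference -1.52). Igfals, like Cux2 (-1.49) and Stat5b (-1.07), differed further than the median of its GC bin. Those medians were -0.56 for Igfals and Cux2 and -0.27 for Stat5b. Socs2 differed by -1.34 where the median of its bin was 0.15, and Trim24 by 0.46 where that was -0.04, whereas Ghr (0.24), Cish (-0.25), Bcl6 (-0.41) and Stat5a (-0.43) lay within 0.4 of theirs. Each female group held 1 shallow library, so among females being shallow was not confounded with mode of conception. Among males every IVF library was less deep than every natural one. The deepest IVF male had 21762008 counts, below the 23448074 of the least deep natural male. Depth was therefore confounded with mode of conception in males, and its part in their IVF differences was not tested. Both shallow libraries were female and no male library had fewer than 14002847 counts, so depth was not balanced between the sexes.

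Bcl6, Cux2 and Trim24 had the largest sex differences of the 10 genes on average, although in natural animals alone Socs2 (-1.81) was beside Trim24 (-1.79). Cux2 (chromosome 5, 121856366 to 122050102, minus strand), which encodes a homeodomain regulator known for female-specific expression in liver, had 9.35, 10.8 and 39.6 CPM in natural females and 8.31, 37.6 and 36.5 CPM in IVF females. Natural males had 0.228, 0.200 and 0.119 CPM and IVF males 0.137, 0.443 and 0.150 CPM, from 26 counts in all 6 males together. The lowest female was far above the highest male. The average log2 difference was -6.75 ± 0.61 with an adjusted p of 3.8e-05 (edgeR), and it was -6.75 in natural and -6.75 in IVF animals. The female mean was 111 times the pooled male level of 0.213 CPM, with an interval of 76.0 to 170 from male counting error alone. Among females 3 libraries had 36.5 to 39.6 CPM and 3 had 8.31 to 10.8 CPM, the latter being both shallow libraries and natural female replicate 1.

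Trim24 (chromosome 6, 37870811 to 37966296, plus strand) was 34.3, 81.5 and 52.2 CPM in natural females and 82.2, 80.5 and 87.5 CPM in IVF females. Natural males had 22.0, 13.0 and 13.4 CPM and IVF males 13.2, 14.2 and 20.9 CPM. No male reached the lowest female, and IVF females were tight where natural females spread widely. The log2 difference was -1.79 ± 0.32 in natural animals, 3.46-fold lower in males with an adjusted p of 0.0166, and -2.37 ± 0.33 in IVF animals, 5.17-fold lower with an adjusted p of 0.00235 (edgeR). On average males were 4.23-fold lower (log2 -2.08 ± 0.23, adjusted p 0.000204). The call in natural animals alone was lost without natural male replicate 2 (adjusted p 0.0807) or replicate 3 (0.09996), and in a fit to the 6 natural libraries only (0.0800).

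Bcl6 (chromosome 16, 23965052 to 23988852, minus strand), a zinc finger repressor, was the only one of the 10 genes called higher in males. Natural females had 20.5, 7.67 and 10.7 CPM and IVF females 10.4, 11.3 and 7.95 CPM. Natural males had 50.3, 27.0 and 70.6 CPM and IVF males 85.6, 30.1 and 14.6 CPM. Within each mode of conception all males were above all females, but IVF male replicate 3 was below natural female replicate 1. The log2 difference was 1.91 ± 0.59 in natural and 2.13 ± 0.60 in IVF animals, with adjusted p of 0.145 and 0.102 (edgeR), and the average of 2.02 ± 0.42, or 4.06-fold, passed with an adjusted p of 0.0149. Leaving out each library in turn gave averages of 1.55 to 2.28.

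**Figure D3:**
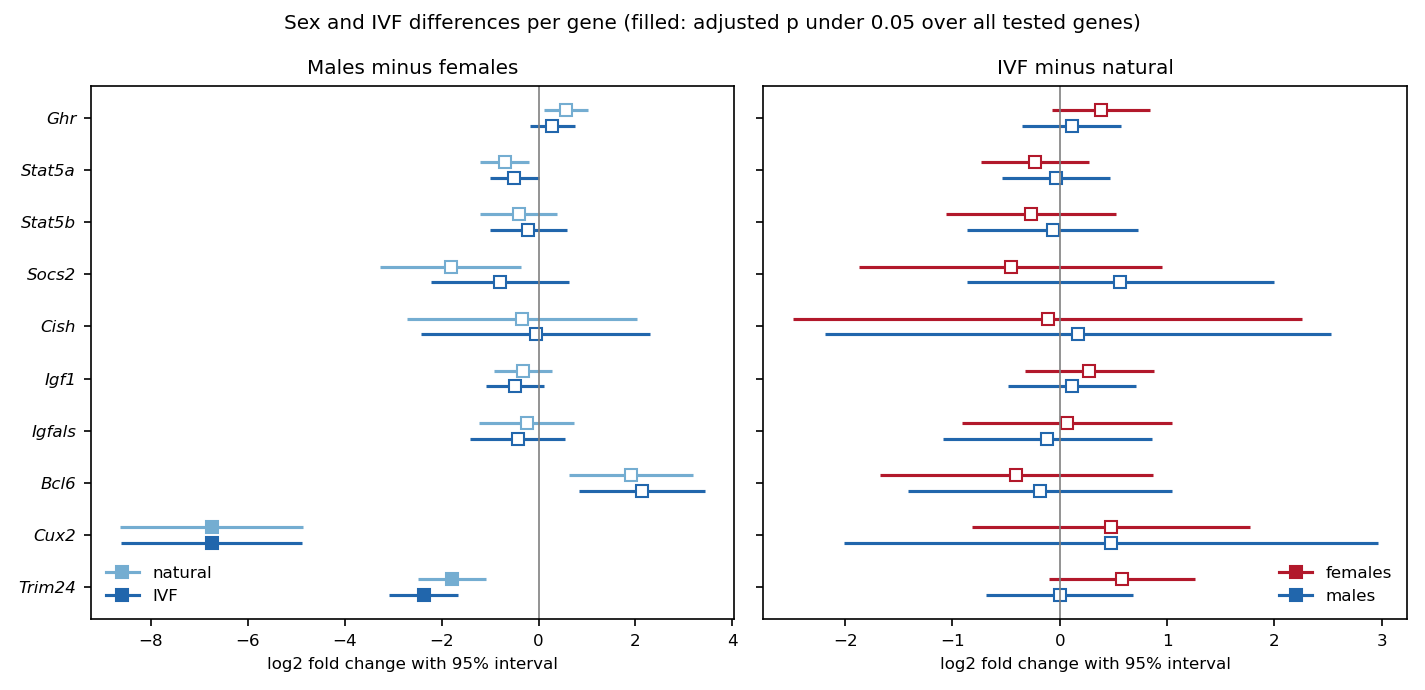
Log2 differences of the 10 genes with 95% intervals, for males minus females in natural and IVF animals (left) and for IVF minus natural in females and males (right); filled squares passed an adjusted p of 0.05 over all tested genes. Cux2 and Trim24 are filled on the left in both modes of conception, and no gene is filled on the right.

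Genes known for sex-biased expression in liver under growth hormone control were compared beside the axis. The lists were chosen with earlier results of these data known, so their counts are not an independent test. Of 21 tested genes on a list of male-biased liver genes, including Cyp4a12a and Mup20, 19 rose in males and 0 fell, with a median log2 difference of 3.70. Of 28 tested female-biased genes 27 fell in males and 0 rose, with a median of -5.77. Beside these, 3 of 8 Kupffer cell markers (Vsig4, Timd4 and Clec4f), 3 of 8 lymphocyte markers (Nkg7, Cd3g and Ptprc) and 2 of 8 stellate cell markers (Lrat and Dcn) were called lower in males. Of all tested genes, 3.57% were called higher in males and 3.63% lower. None of 7 hepatocyte, 8 endothelial and 5 cholangiocyte markers was called by edgeR, with 2, 2 and 2 at an unadjusted p under 0.05, against 23.6% of all tested genes; DESeq2 called 1 of each and limma voom 1, 0 and 0, albumin (Alb) being the hepatocyte marker in both. Summed Kupffer cell markers were 298 to 448 CPM in females, 269 to 305 in natural males and 144 to 230.2 in IVF males. Summed lymphocyte markers were 14.2 to 21.5 CPM in females and 6.1 to 11.1 in males, and summed stellate cell markers 331 to 477 and 249.7 to 355.5. Of 13 acute-phase genes 5 rose in males, Saa1, Saa2, Saa3, Hp and Hpx, against 3.57% of all tested genes. The 13 genes had summed levels of 11405 to 25927 CPM outside natural males and 18080, 62162 and 39906 CPM in these. The part of these cell types and of the acute phase in the sex differences was not tested.

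No IVF difference was called in any of the 10 genes. In females 0 of 10 passed, against 0% of all tested genes, and in males 0 of 10, against 0.00757% (edgeR's quasi-likelihood test, adjusted p under 0.05). At an unadjusted p under 0.05 there were also 0 of 10 in each sex, against 3.7% and 2.69% of all tested genes, and DESeq2 and limma voom called 0 as well. The difference between the IVF effects of males and females passed for 0 of 10, against 0%, and the average IVF effect for 0 of 10, against 0.00757%. Unadjusted, these were again 0 of 10, against 3.87% and 2.69%. The 10 genes split into 5 positive and 5 negative log2 differences in females, median -0.02 against -0.01 for all genes, and 5 and 5 in males, median 0.05 against 0.01.

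How large a difference could have gone unseen varied with the gene. For Ghr the IVF minus natural log2 difference was 0.39 in females (95% interval -0.07 to 0.85) and 0.11 in males (-0.35 to 0.57). Ghr was the only one of the 10 whose female groups did not overlap, 544 to 688 CPM after IVF and 441 to 533 after natural conception, against 7.42% of all tested genes, and its unadjusted p was 0.0915 with an adjusted p of 1. For Igf1 the difference was 0.27 (-0.32 to 0.87) in females and 0.11 (-0.49 to 0.71) in males. Intervals for Stat5a were as narrow, -0.23 (-0.73 to 0.27) and -0.03 (-0.54 to 0.47), and for Stat5b they were -0.27 (-1.06 to 0.53) and -0.07 (-0.86 to 0.73). In males 0 of 10 genes had groups that did not overlap, against 8.91%.

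The intervals of Bcl6, Socs2, Cish, Cux2 and Igfals were wider. Trim24, whose intervals were narrower than those of Stat5b, had 0.58 (-0.10 to 1.26) in females and -0.0023 (-0.69 to 0.68) in males, and the difference of these effects was -0.58 ± 0.44. Bcl6 had -0.41 (-1.68 to 0.86) and -0.19 (-1.42 to 1.05). Socs2 had -0.46 (-1.87 to 0.96) in females and 0.56 (-0.87 to 1.99) in males, and Igfals 0.07 (-0.91 to 1.04) and -0.12 (-1.09 to 0.86). For Cish the interval reached from -2.49 to 2.26 in females and from -2.19 to 2.53 in males, so that a change of several fold in either direction was not detectable at this spread. For Cux2 it was -0.82 to 1.77 in females, and in males the groups had 14 and 12 counts in all.

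The 10 genes differed widely in their spread between libraries of the same group. The within-group SD of log2 CPM had a median of 0.38 over tested genes. Cish had 1.68, higher than in 99.5% of tested genes and than in all of the 500 genes nearest to it in level. Socs2 followed with 0.94 (percentile 95.1), Cux2 with 0.92 (94.6), Bcl6 with 0.82 (92.0) and Igfals with 0.67 (84.5). Stat5b had 0.53 (71.6), Trim24 0.42 (55.9), Igf1 0.33 (40.5), Stat5a 0.28 (28.6) and Ghr 0.22 (16.3). Without both shallow libraries the median over tested genes was 0.28, Igfals had 0.29 (percentile 52.9) and Stat5b 0.34 (63.5), while Cish at 1.93, Bcl6 at 0.90, Socs2 at 0.89 and Cux2 at 0.73 stayed above percentile 93. Cish had 1.30 to 1.79 and Socs2 0.67 to 1.01 when each library was left out, lowest in both without IVF male replicate 3. The inhibitors and the regulators Cux2 and Bcl6 varied most, and the receptor and Stat5a least, although the spread of Cux2 in males rests on 2 to 9 counts per library.

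**Figure D4:**
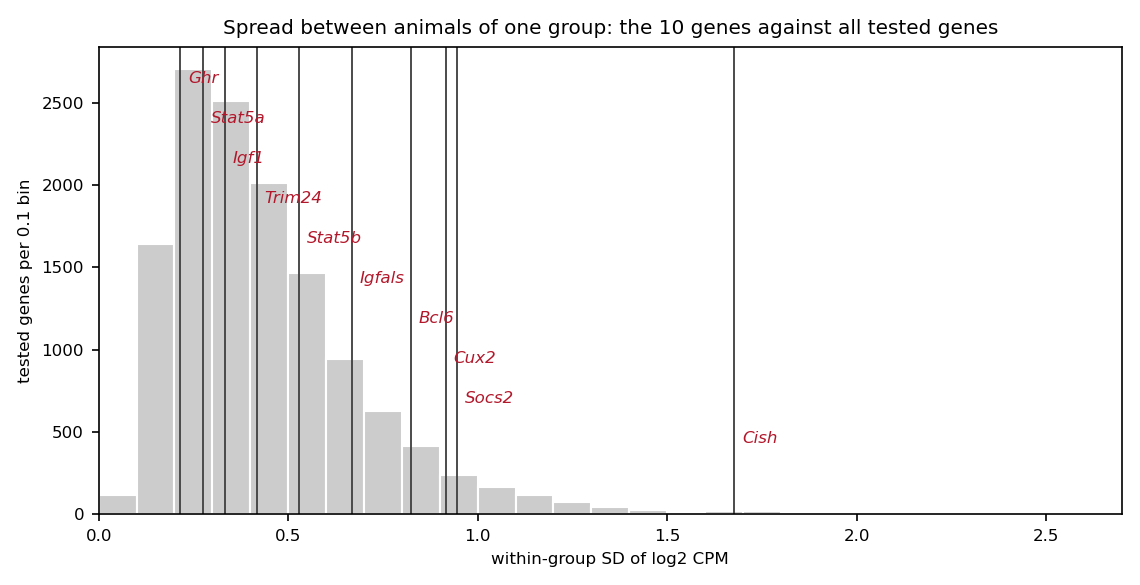
Within-group SD of log2 CPM over the 12 libraries for all tested genes (grey bars, genes per bin of 0.1) and for the 10 genes (lines). Cish lies at 1.68 in the far upper tail, Socs2, Cux2 and Bcl6 lie between 0.82 and 0.94, and Ghr lies at 0.22 below the median of 0.38.

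Cish and Bcl6 tended to deviate in opposite directions. The 2 males with high Cish, IVF male replicate 3 (27.4 CPM) and natural male replicate 2 (23.7 CPM), had the lowest Bcl6 of their groups, 14.6 and 27.0 CPM. The 2 males with the lowest Cish, IVF male replicate 1 (0.755 CPM) and natural male replicate 1 (1.14 CPM), had 85.6 and 50.3 CPM of Bcl6. Between them in Cish lay IVF male replicate 2 (3.25 CPM) and natural male replicate 3 (3.36 CPM), with 30.1 and 70.6 CPM of Bcl6. The order was therefore not strict, as natural male replicate 3 had the highest Bcl6 of its group. Over the deviations of all 12 libraries from their group means, Pearson's r was -0.80 (exact permutation p = 0.0579, 0.116 after Benjamini-Hochberg adjustment over 4 gene pairs) and Spearman's rho -0.72 (exact permutation p = 0.0417, adjusted 0.0833). Neither passed after adjustment over all 12 libraries. Without the 2 libraries farthest from the median of Cish, which were the 2 males with high Cish, r was -0.61. Leaving out each library in turn gave r of -0.88 to -0.65. Leaving out natural male replicate 2 alone moved rho to -0.29 (exact permutation p = 0.551), while r was -0.76 (exact permutation p = 0.211). Leaving out natural female replicate 2, which is shallow, moved rho to -0.86, which passed (exact permutation p = 0.00926, adjusted 0.0370). Within males alone r was -0.89 (exact permutation p = 0.0833) and within females alone -0.32 (exact permutation p = 0.75), and the difference between the sexes was not tested.

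Cish and Socs2 deviated in the same direction, with r = 0.66 (exact permutation p = 0.0509, adjusted 0.116) and rho = 0.66 (exact permutation p = 0.0363, adjusted 0.0833). IVF male replicate 3 was highest of its group in both, at 27.4 CPM of Cish and 40.0 CPM of Socs2. Without that library r was 0.30 (rho 0.37), whereas without natural male replicate 2 it was 0.73, so r over both sexes depended most on IVF male replicate 3. Within males alone r was 0.77 (exact permutation p = 0.139). Within females alone, without any male library, it was 0.61 (exact permutation p = 0.222). Without the 2 libraries farthest from the median of Cish r was 0.43. Without IVF female replicate 1, which is shallow, rho was 0.78 and passed (exact permutation p = 0.0116, adjusted 0.0463). Natural male replicate 2, with 23.7 CPM of Cish, had 14.9 CPM of Socs2, close to the 13.6 CPM of natural male replicate 3. The pair Socs2 and Igf1 had r = -0.41 (exact permutation p = 0.164, adjusted 0.164; rho -0.34, p = 0.326, adjusted 0.326) and Igf1 and Igfals r = -0.65 (exact permutation p = 0.143, adjusted 0.164; rho -0.55, p = 0.182, adjusted 0.243). Without the 2 libraries farthest on the first gene, with deviations still taken from the means of all 12 libraries, these were -0.70 and -0.20. For Igf1 and Igfals those 2 were the shallow libraries. With both shallow libraries left out and group means taken anew, the correlations became 0.05 and 0.25. Without the shallow libraries, the sign for Igf1 and Igfals thus depended on how the group means were taken.

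**Figure D5:**
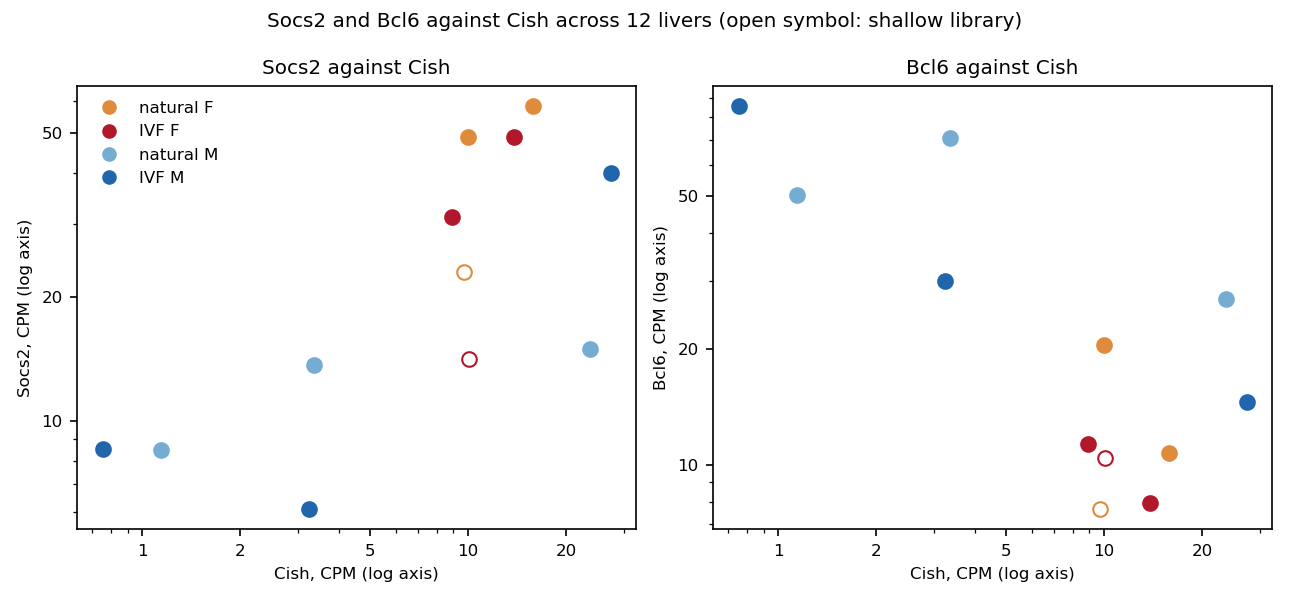
Socs2 (left) and Bcl6 (right) against Cish in CPM on log axes, 1 point per library, coloured by group, with open symbols for the shallow libraries. The 2 males at 23.7 and 27.4 CPM of Cish have less Bcl6 than the other males, and 1 of them also has Socs2 in the female range at 40.0 CPM.

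Further measures were set beside the 2 males with high Cish and the other 4 males. Onecut1, a liver transcription factor also induced by growth hormone, was 149 CPM in IVF male replicate 3 and 32.8 in natural male replicate 2, against 4.61 to 28.4 CPM in the other males. Summed levels of 8 further STAT5 targets, Onecut1 among them, were 687 and 370 CPM, against 363 to 474 CPM in the others. With each tested gene weighing the same, the mean of their centred log2 CPM was 0.160 and 0.161, against -0.65 to 0.035 in the others. Summed male-biased genes were 65778 and 63246 CPM in these libraries and 39000 to 44572 CPM in the others. The mean of the list's centred log2 CPM, in which each gene weighs the same, was 2.35 in IVF male replicate 3 but 2.13 in natural male replicate 2, within the 2.07 to 2.17 of the others. Summed levels of 13 clock genes were 588 and 536 CPM, against 714 to 796 CPM in the others. Summed acute-phase genes were 17877 CPM in IVF male replicate 3, within the 13782 to 39906 CPM of the others, and 62162 CPM in natural male replicate 2. Their part in the levels of Cish and Bcl6 was not tested, and the time of day of collection was not given in the sources used here.

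Averaged over both modes of conception, 2 clock genes were called by sex. Arntl, which encodes the activator BMAL1, was 15.5, 22.2 and 4.23 CPM in natural females and 4.30, 6.69 and 2.91 CPM in IVF females. The highest of these, 22.2 CPM, was a shallow library. Males had 2.10 to 2.85 CPM (log2 -1.69 ± 0.35, adjusted p 0.0150, edgeR). Per2 was 1.14 ± 0.30 higher in males on the log2 scale (adjusted p 0.0411, edgeR). These were the 2 calls of edgeR among 12 tested clock genes, against 7.2% of all tested genes. DESeq2, which called 1693 of the 13204 tested genes, called 3 of the 12, adding Per1, and limma voom called Per2 only. For Arntl the log2 difference was -2.57 in natural animals (adjusted p 0.0244) and -0.80 in IVF animals (adjusted p 0.505), and for Per2 it was 1.78 (0.0651) and 0.50 (0.639). The difference between the modes passed for neither (edgeR, unadjusted p of 0.0247 for Arntl and 0.0515 for Per2, adjusted p of 1 for both).

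Other parts of receptor signalling were followed with 20 genes, of which 19 were tested. In males 0 rose and 2 fell, against 3.57% and 3.63% of all tested genes. The 2 were Prlr, the prolactin receptor, which growth hormone can also bind in some species, and Lepr, the leptin receptor. Prlr was 419 to 779 CPM in females and 78.3 to 148 CPM in males (log2 -2.38 ± 0.19, adjusted p 1.1e-05, edgeR), and Lepr 3.41 to 20.9 and 0.836 to 3.97 CPM (log2 -2.21 ± 0.44, adjusted p 0.0123). Jak2, the kinase bound to the receptor, had 24.6 to 34.7 CPM in females and 20.8 to 26.2 CPM in males, with an adjusted p of 0.200. The list's median was 0.0044, against -0.01 for all genes.

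The IGF axis beyond Igf1 and Igfals was followed with 16 genes, of which 12 were tested. For the average sex effect 1 was called higher and 1 lower in males, against 3.57% and 3.63% of all tested genes. Averaged over both modes, Igf2r, the clearance receptor for IGF2, rose in males by 0.51 ± 0.14 on the log2 scale (adjusted p 0.0455, edgeR), and Igfbp3, the carrier that joins IGF1 and the acid-labile subunit, was lower (log2 -0.81 ± 0.19, adjusted p 0.0242). Igfbp3 was 21.2 to 30.8 CPM in females and 9.64 to 22.2 CPM in males. None was called for IVF in either sex by edgeR, DESeq2 or limma voom, with 1 of 12 at an unadjusted p under 0.05 in females, against 3.7% of all tested genes, and 2 in males, against 2.69%. In males 11 of the 12 had negative IVF minus natural differences, with a median of -0.37 against 0.01 for all genes. The smallest p was that of Igf1r, the IGF1 receptor, with 3.98, 2.66 and 3.70 CPM in IVF males and 6.72, 6.24 and 6.64 CPM in natural males. The groups did not overlap, and the log2 difference was -0.92 ± 0.28 with an unadjusted p of 0.00586 and an adjusted p of 1. Several other lists also had mostly negative differences in these males: acute-phase genes 13 of 13 (7 at an unadjusted p under 0.05, median -1.24), Kupffer cell markers 7 of 8 (5 at an unadjusted p under 0.05, median -0.66), endothelial markers 8 of 8, cholangiocyte markers 5 of 5 and stellate cell markers 6 of 8. None of their genes was called by edgeR or limma voom, DESeq2 called 1, the acute-phase gene Saa3, and their part was not tested.

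Other STAT5 targets, 7 tested genes such as Socs3, Pim1 and Onecut1, gave 1 call for sex, against 7.2% of all tested genes. It was Ccnd1, which encodes cyclin D1. Ccnd1 was 21.8 to 84.2 CPM in females and 10.2 to 24.2 CPM in males (log2 -1.81 ± 0.32, adjusted p 0.00617, edgeR). Of 18 liver transcription factors 2 fell in males, Tox and Esr1, and 2 rose, Cebpb and Foxa3, against 3.63% and 3.57% of all tested genes. Tox, like Cux2 a regulator with female-biased expression, was 9.39 to 28.6 CPM in females and 1.65 to 2.88 CPM in males (log2 -2.86 ± 0.28, adjusted p 9.0e-05).

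The genes whose profiles over the 12 libraries were most like those of Cux2, Bcl6, Socs2 and Igf1 were ranked by the root-mean-square difference of centred log2 CPM. Nearest to Cux2 were Sult2a6 (0.63), a sulfotransferase, Slc22a27 (0.65), an organic anion transporter, and Cyp2c39 (0.96), a cytochrome P450. Slc22a27 averaged 42.5 CPM in IVF and 28.0 CPM in natural females, and 0.406 and 0.475 CPM in IVF and natural males. Sult2a6 belongs to a family of near-identical genes, so its reads may have been divided among copies. Nearest to Bcl6 were C1ql4 (0.54), Treh (0.61) and Slc35e3 (0.63), of which C1ql4 had under 1 CPM in all groups and Slc35e3 averaged 16.2 and 18.5 CPM in IVF and natural females and 51.4 and 54.9 CPM in the males. Nearest to Socs2 were Slc34a2 (0.55), Morc4 (0.55) and Rgs3 (0.56), and among the nearest to Igf1 were Fcho2 (0.14) and Dars (0.16).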

How the data were processed

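The authors deposited 1 table of raw read counts, with gene symbols as rows and libraries as columns named by sample title. Per the labels, RNA was extracted with TRIzol and poly-A libraries (KAPA kit) were sequenced on a NextSeq 500. The submitters' processing notes list Trimmomatic 0.32, STAR 2.3.0e, featureCounts 1.5.0 and mm10, without roles; strand use and the handling of reads matching several genes are not given in the sources used here, which affects gene families and overlapping genes. Mice were collected at 12 or 39 weeks, per the labels; only livers of 39 weeks are analysed here. Replicate numbers follow accession order and pair no samples; numbers in the sample titles, 1 of them shared by an IVF female and an IVF male, were not used.

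The deposited counts were tested with edgeR 4.0.16 (R 4.3.3): filterByExpr by group, TMM normalization, quasi-likelihood fit with a mean for each of 4 groups, and Benjamini-Hochberg adjustment over all 13204 tested genes, called under 0.05. Log2 CPM used a prior count of 2. Standard errors come from the fit of all 12 libraries. The Stat5b share was compared by exact permutation of sex within mode of conception, and correlations by exact permutation within groups. Positions, exon lengths and GC content come from GENCODE M21, and start-site windows from RefSeq (GRCm38.p6). All 10 genes are named. Other genes were named from fixed lists by rule: up to 5 called per list by size in the average sex effect and up to 3 by unadjusted p for IVF, with those of most interest printed, and 3 nearest profiles for 4 genes, of which 1 is not reported here; Jak2, and Onecut1 and the summed lists beside the males with high Cish, were chosen after values were seen. The 10 genes and the lists were chosen with earlier results of these data known. Chi-square per degree of freedom between libraries of a group was at least 84.1, so none was deposited in duplicate. On simulated counts for 13047 genes, sex changes were placed only in genes with a mean above 5 CPM. The average sex effect recovered 55.2% of 2-fold, 97.0% of 4-fold and 100% of 8-fold changes and called 0.101% of unchanged genes. Changes in genes of lower level and changes by IVF were not simulated. Alternatives were DESeq2 1.42.0 and its size factors, limma 3.58.1 voom, library size alone, other filters, an adjusted p under 0.1, fits to the compared groups only, leaving out each library and leaving out both shallow libraries. A term for the shallow libraries, co-variation within each sex, and within-group SDs with libraries left out were added after seeing the data.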

Additional observations from a re-analysis of the deposited data

How the results depend on the processing

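Of the 10 genes, the number called for IVF or for the difference of IVF effects was 0 in every alternative run. The average sex effect called 4, and 3 to 6 in the alternatives: 6 with DESeq2 (adding Ghr and Socs2), 6 with a term for the shallow libraries (adding Socs2 and Igfals), 5 with library size alone (adding Socs2), 5 without both shallow libraries (adding Igfals) and 3 without the filter on low counts (losing Stat5a). Natural males against females called 2, but 3 with DESeq2 (adding Bcl6), 3 with a term for the shallow libraries (adding Stat5a), 1 in a fit to these groups only, and 1 to 2 when each library was left out. IVF males against females called 2, and 3 with DESeq2 (adding Bcl6). The Stat5b share differed by 2.53 to 5.17 percentage points when each library was left out, with an exact permutation p of 0.045 at 4.92 without IVF male replicate 3. Over all tested genes, DESeq2 called 678, 721 and 1693 genes for sex in natural animals, IVF animals and on average, where edgeR called 234, 289 and 951. With library size alone the average sex effect called 252 higher and 1373 lower in males, against 472 and 479. A term for the shallow libraries gave 458, 438 and 1264, an adjusted p under 0.1 gave 442, 495 and 1626, and fits to the compared groups only gave 139 and 201 in natural and IVF animals. Leaving out natural male replicate 3 gave 111 and, on average, 519, and leaving out IVF male replicate 3 gave 137 in IVF animals. For IVF in females, IVF in males, their difference and their average, DESeq2 called 4, 5, 9 and 4 genes and edgeR 0, 1, 0 and 1. Library size alone moved the median of all genes to -0.34 in natural animals and -0.22 on average for sex, and to 0.14 for IVF in males.

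Values that changed sign were all uncalled. For IVF minus natural in males, library size alone gave 0.10 for Stat5a, 0.076 for Stat5b, 0.021 for Igfals and 0.11 for Trim24, voom gave 0.019 for Trim24, and a fit to these groups only 0.0034. Without both shallow libraries the correlations of Socs2 with Igf1 and of Igf1 with Igfals became 0.053 and 0.25. Leaving out each library in turn gave these ranges of log2 differences across 0. For IVF in males they were -0.0054 to 0.31 for Ghr, -0.18 to 0.12 for Stat5a, -0.28 to 0.19 for Stat5b, -1.14 to 0.23 for Bcl6, -0.30 to 0.75 for Cux2, -0.76 to 0.97 for Socs2, -2.19 to 2.22 for Cish, -0.031 to 0.32 for Igf1, -0.29 to 0.033 for Igfals and -0.24 to 0.29 for Trim24. For IVF in females they were -0.55 to 0.015 for Stat5b, -0.67 to 0.097 for Bcl6, -0.33 to 0.17 for Cish and -0.31 to 0.46 for Igfals. For sex they were -0.50 to 0.046 for Stat5b in IVF animals, -0.59 to 0.15 for Igfals in natural animals, and for Cish -2.40 to 0.19 in natural animals, -2.41 to 0.48 in IVF animals and -1.38 to 0.072 on average. The cause was not tested.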
